A study of Rattus norvegicus with 16 samples.

Results

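The late transcripts are 59 of the 41078 transcripts counted in rat neural stem cells that differentiated inside hydrogels. They stood well above their level at 12 h by 48 h. A transcript was included when its mean at 48 h was at least 5 CPM (counts scaled to a library total of 1000000) and when the log2 ratio of the 48 h mean to the 12 h mean, with 1 CPM added to each, was at least 1.5. Every one of the 8 libraries at 48 h also had to lie above every one of the 8 libraries at 12 h. The transcripts were thus chosen by their measured levels at 12 h and 48 h, and the difference between times is described here without a test.

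The cells were adult rat hippocampal neural stem cells, also labelled progenitor cells, in hyaluronic acid gels. All 16 libraries came from cells kept in the same mixed differentiation medium, DMEM-F12 with N2, 1 μM retinoic acid and 1% FBS (fetal bovine serum). The gels were soft (100 Pa) or stiff (1.2 kPa), were made without or with RGD, and were sampled at 12 h or 48 h, which gave 8 groups of 2 libraries. Libraries are named below by gel and number, such as soft/RGD 2. RNA came from cell pellets, and the labels do not say whether the replicates were separate cultures, so the spread behind each p-value is that among these libraries alone and may be technical.

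Neural stem cells of the adult hippocampus divide slowly in the dentate gyrus and can form neurons and glia. In culture, withdrawal of growth factors together with retinoic acid, a ligand of nuclear receptors that bind DNA, and serum starts their differentiation along several lineages at once. RGD is a short peptide motif of matrix proteins to which integrins, the receptors that couple the cell to its matrix, bind. Cells sense the stiffness of their surroundings partly through such contacts, and hippocampal stem cells are known to shift between neuronal and glial fates with it.

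The deposited table names its rows by Ensembl transcript identifier only. Of the 41078 identifiers, 0 matched a symbol in the reference table of 47357 rat genes used here, so the function of the late transcripts is not described and the markers of neural stem cells, astrocytes, neurons, oligodendrocytes and other cells could not be checked. No sequence could be matched either. For each comparison a few transcripts are named by identifier, and the others are given by rank, count and range. The 16 libraries held 1829779 to 3420786 counts in total, with a mean of 2487316. Without the 2 most abundant transcripts they held 854022 to 1645978 counts, with a mean of 1235716. CPM by column total thus depend strongly on these 2 transcripts, and the depth left for all others is lower than the totals. The libraries were made from tags at the 3′ ends of transcripts, so levels were not divided by transcript length, and isoforms of a gene can share tags. With bulk RNA, a rise of a transcript within cells and a rise in the share of cells that hold it cannot be told apart.

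Of 6395 transcripts with a mean of at least 5 CPM at 48 h, 78 met the fold criterion, and 59 of these also had separate ranges at the 2 times. The other 19 had libraries that overlapped, 15 of them through a single library at one of the times. The lowest 48 h library of these 19 was most often soft/no-RGD 2, in 8 cases, or stiff/RGD 2, in 7. At the fold threshold, the 3 transcripts just inside had log2 ratios of 1.51, 1.52 and 1.56, and the 3 just outside had 1.496, 1.48 and 1.47. The outside ones went from 25.6 to 74.0, from 6.57 to 20.1 and from 11.7 to 34.0 CPM, so the border runs through a continuous range. With the times exchanged, the same rule found 123 transcripts, so that more were strongly lowered than raised by 48 h in CPM by column total. The 123 were not recounted with another scaling.

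**Figure D1:**
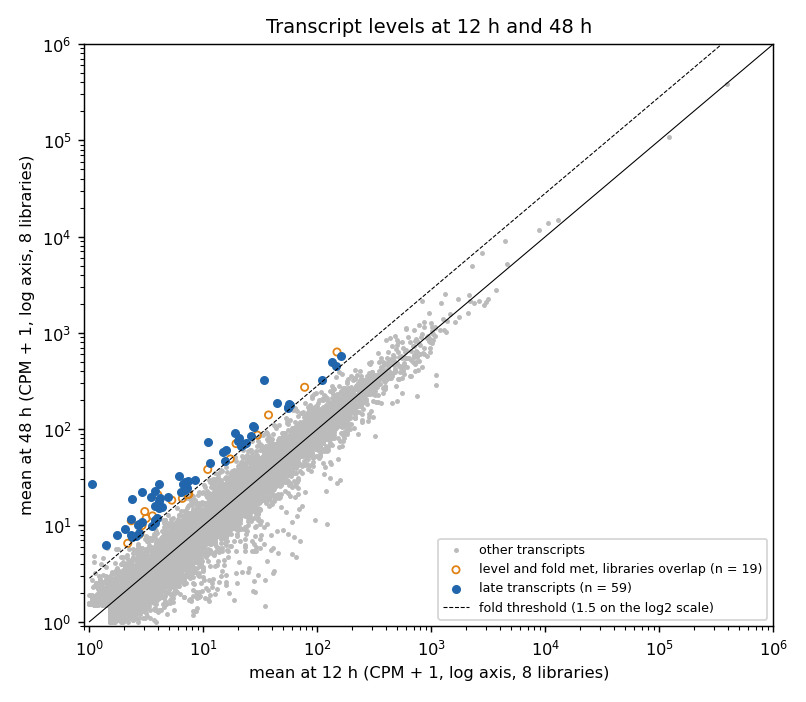
Mean level at 12 h (x axis) and at 48 h (y axis) of each transcript over 8 libraries per time, in CPM + 1 on log axes. Blue points are the 59 late transcripts, orange circles the 19 that met level and fold but overlapped, grey points other transcripts, the solid line equality and the dashed line the fold threshold; the late transcripts reach from 5.31 to 577 CPM at 48 h.

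The late transcripts covered a wide range of levels. At 48 h their means ran from 5.31 to 577 CPM with a median of 25.8 CPM, and at 12 h from 0.0598 to 159 CPM with a median of 5.57 CPM. The log2 ratio had a median of 1.92 and a highest value of 4.67. It was 3 or more in 2 transcripts, from 2 to under 3 in 19 and under 2 in 38. Without the added CPM, the median ratio of the means was 4.32. The lowest 48 h library lay at least 2 times above the highest 12 h library in 11 transcripts and less than 1.1 times above it in 7.

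Most had been present at 12 h already. Only 3 had a mean under 1 CPM at 12 h, and these reached 5.31, 7.04 and 26.0 CPM at 48 h. A further 24 started from 1 to under 5 CPM and reached a median of 10.9 CPM. The 16 that started from 5 to under 20 CPM reached a median of 37.2 CPM, and the 16 that started from 20 CPM or more reached a median of 171 CPM. Between the last 2 classes the median log2 ratio went from 1.96 to 1.66. At 12 h, 10 transcripts had 0 counts in at least 1 library, and at 48 h 0 had. Counts summed over the 8 libraries of 48 h ran from 112 to 12251 per transcript, which sets the precision of the lowest and the highest of them.

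ENSRNOT00000009840.5 had the highest level at 48 h. In the following, the CPM of named transcripts are scaled by TMM, a factor that corrects each library's total for its composition. At 12 h ENSRNOT00000009840.5 stood at 188 and 185 CPM in soft gels without RGD, 165 and 229 in soft gels with RGD, 73.2 and 223 in stiff gels without RGD, and 91.8 and 123 in stiff gels with RGD. At 48 h the same groups held 745 and 855, 564 and 447, 702 and 549, and 306 and 515 CPM. Every condition was higher at 48 h, and the lowest 48 h library was a stiff one with RGD. By the rule's values this transcript made up 12.4% of the summed level of the late transcripts at 48 h and 13.1% at 12 h, and the 5 most abundant together made up 46.9% and 47.8%.

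ENSRNOT00000018581.4 had the largest log2 ratio, 4.67. Its 8 libraries at 12 h held a single count together, and those at 48 h held 548. The ratio of these summed counts, corrected for library totals, was 501. It rests on the single count at 12 h, in the transcript picked for the largest log2 ratio, and is a description only. At 48 h its libraries held 60 and 114 counts in soft gels without RGD, 123 and 35 in soft gels with RGD, 28 and 105 in stiff gels without RGD, and 57 and 26 in stiff gels with RGD. The only count at 12 h came from soft/RGD 2. Replicates of a group at 48 h differed by more than the groups did. The transcript with the next largest log2 ratio, 3.26, was also the fourth most abundant at 48 h, with 325 CPM after 33.1 CPM at 12 h. Its log2 ratio was 4.21 and 3.74 in soft and stiff gels with RGD, and 2.31 and 2.64 in those without.

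A higher level at 48 h in each of the 4 combinations of stiffness and RGD was fixed by the choice of these transcripts, so the sizes of the rise are given as a description. The log2 ratio, computed within each combination from 2 libraries per time, was at least 1 in all 4 for 53 of the 59 and at least 1.5 in all 4 for 22. Its median over the late transcripts was 2.26 in soft gels with RGD, 1.98 in soft gels without RGD, 1.79 in stiff gels with RGD and 1.68 in stiff gels without RGD. The largest of the 4 ratios fell in soft gels with RGD for 34 transcripts, in soft gels without RGD for 18, in stiff gels without RGD for 5 and in stiff gels with RGD for 2. Within a transcript the 4 ratios spanned a median of 0.996 on the log2 scale, with 2 libraries behind each mean. Differences of the rise between conditions are likewise described, not tested.

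**Figure D2:**
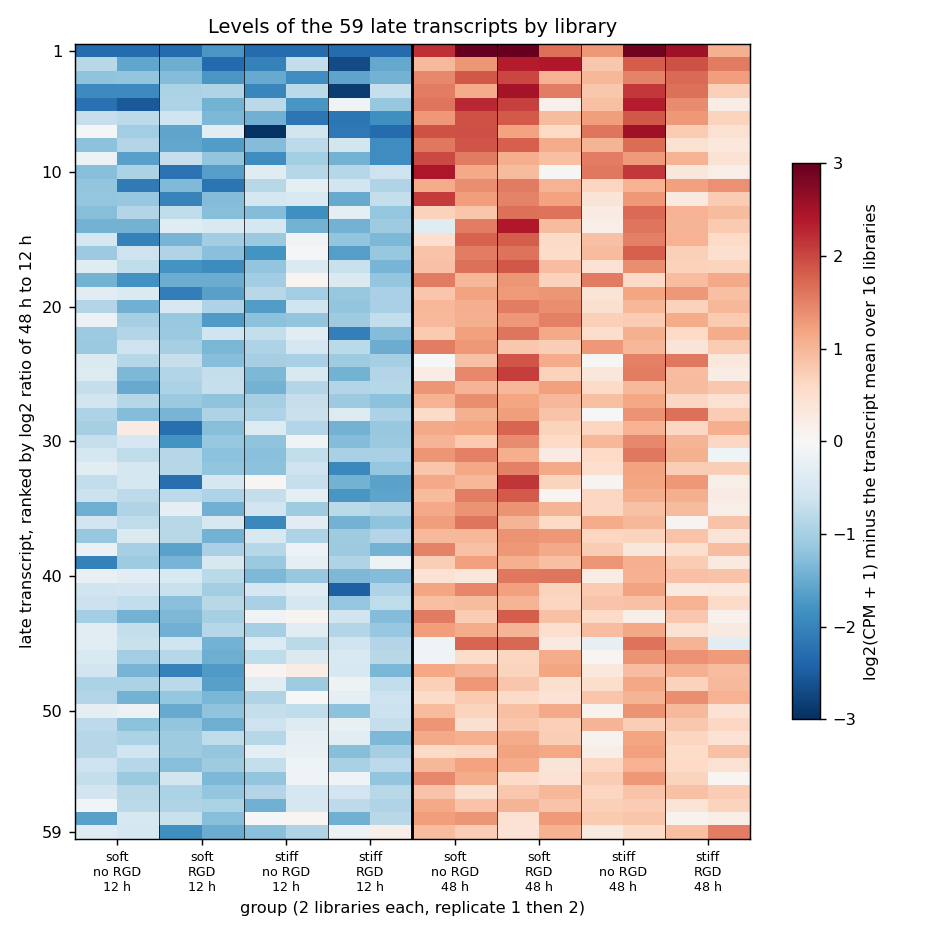
Level of each of the 59 late transcripts (rows, ranked by log2 ratio) in each of the 16 libraries (columns, 8 groups of 2), as log2(CPM + 1) minus the mean of the transcript over all libraries. In every row all 8 columns at 48 h are above those at 12 h, which the choice of transcripts fixed; at 48 h the paler columns are stiff/no-RGD 1 and stiff/RGD 2, which were the lowest library for 19 and 17 of the transcripts.

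Summed over the 59, the late transcripts took 0.102% to 0.166% of a library's counts at 12 h and 0.393% to 0.552% at 48 h. The summed level at 12 h was 1447 and 1157 CPM in soft gels without RGD, 1069 and 1025 in soft gels with RGD, 1038 and 1656 in stiff gels without RGD, and 1170 and 1123 in stiff gels with RGD. At 48 h it was 4658 and 5097, 5516 and 4357, 3931 and 5135, and 4452 and 3953 CPM. Soft and stiff gels overlapped at both times, and replicates of a group differed by up to 1204 CPM at 48 h. The lowest 48 h library had 2.37 times the summed level of the highest 12 h library, stiff/no-RGD 2, which held the highest 12 h value for 24 of the 59. Library totals at 48 h also overlapped, from 2403144 to 2816114 counts in soft and from 2035890 to 2926954 in stiff gels.

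**Figure D3:**
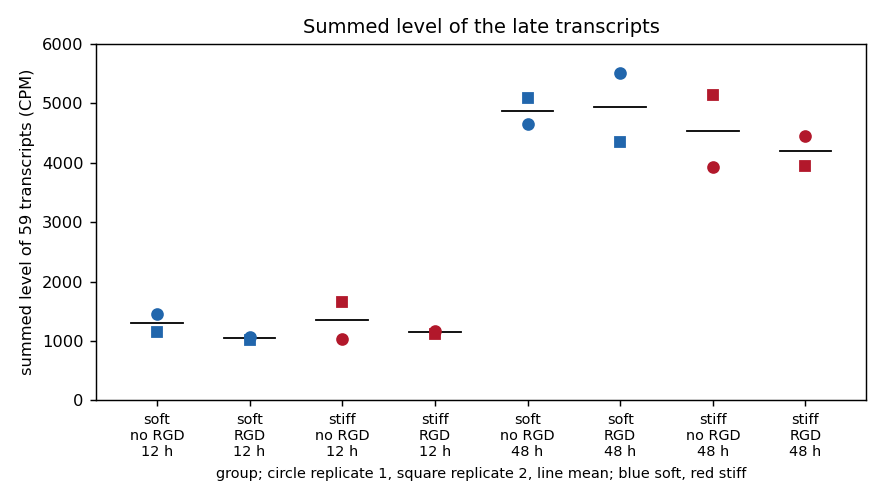
Summed level of the 59 late transcripts in each library, in CPM by column total. Circles are replicate 1, squares replicate 2, lines the mean of the 2, blue soft and red stiff gels; the 12 h libraries lie between 1025 and 1656 CPM and the 48 h libraries between 3931 and 5516 CPM, with replicates of a group as far apart as soft and stiff.

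The choice of these transcripts compared times and did not contrast soft with stiff gels or gels without and with RGD. Stiffness and RGD within each time, and their interaction at 48 h, were tested by edgeR's quasi-likelihood test with 1 mean per group over all 16 libraries, and p-values were adjusted by Benjamini-Hochberg over all 7876 transcripts that passed a filter on low counts. All 59 late transcripts passed it. For the difference between times, which did choose them, all 59 were called higher at 48 h, as were 19.1% of all tested transcripts, and nothing is read from that.

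At 48 h, most late transcripts were somewhat lower in stiff than in soft gels, but none passed the test. The fitted log2 fold change was below 0 for 53 of the 59, with a median of -0.29 and a range from -1.04 to 0.49. Over all tested transcripts 49.2% were below 0 and the median was 0.0049. By edgeR 0 of the 59 had an adjusted p under 0.05, as did 0% of all tested, and DESeq2 and limma-voom also called 0 of the 59. An unadjusted p under 0.05 was reached by 15 of the 59 (13 lower, 2 higher), or 25.4%, against 7.33% of all tested. The 4 stiff libraries did not overlap the 4 soft ones for 3 that were lower and 1 that was higher in stiff gels, 6.78% of the late transcripts against 2.44% of all tested (1.18% lower, 1.26% higher).

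These 53 are not independent observations, since they share the same 8 libraries. Over the 8 libraries at 48 h the median Pearson correlation between pairs of late transcripts was 0.27, and over pairs of all tested transcripts it was -0.0020. Without soft/RGD 1, the highest library at 48 h for 18 of the 59, 41 were below 0 and the median was -0.14. In gels without RGD, 42 of the 59 were lower in stiff gels (median difference of the log2 levels -0.24), and in gels with RGD, from separate libraries, 52 were (median -0.40). All 4 classes by 12 h level had a negative median, from -0.18 for those at 20 CPM or more to -0.44 for the 3 under 1 CPM.

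ENSRNOT00000088175.1, the third most abundant late transcript, had the smallest p of the 59 for stiffness at 48 h and went the other way. Soft gels held 398 and 414 CPM if RGD was absent and 357 and 339 CPM if it was present. Stiff gels held 496 and 474 CPM and, with RGD present, 646 and 499 CPM, so that every stiff library lay above every soft one. The log2 fold change was 0.49 ± 0.15 (SE) with an edgeR adjusted p of 0.491, which did not pass. At 12 h it was 0.62 ± 0.16 (SE, edgeR adjusted p = 0.0597), also short of the threshold, with soft libraries at 101 to 131 CPM and stiff ones at 129 to 233 CPM.

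**Figure D4:**
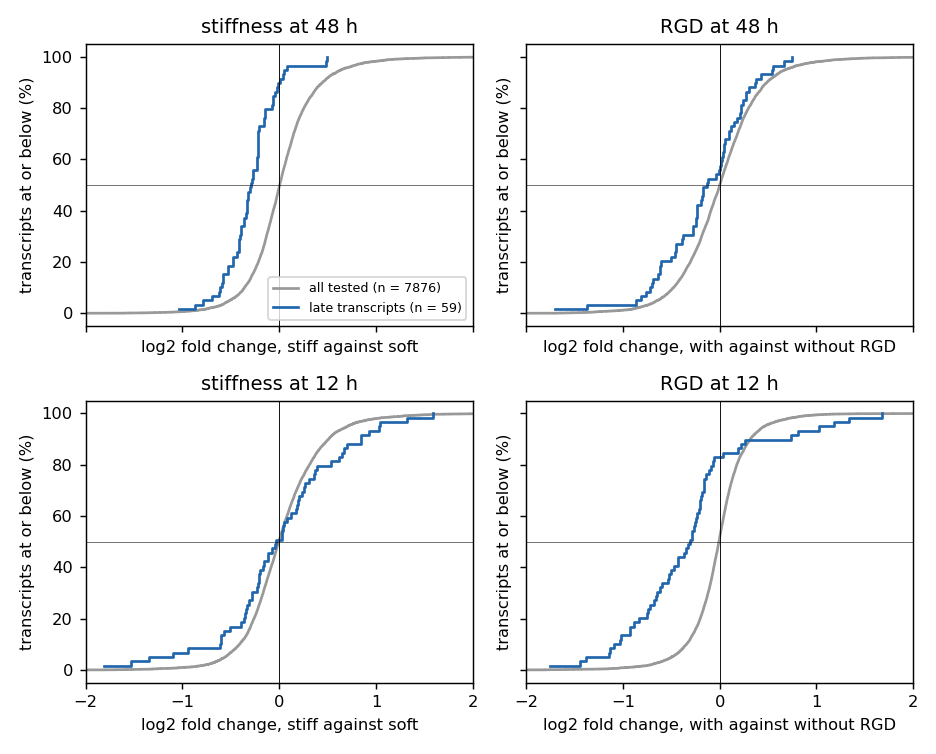
Cumulative share of transcripts (y axis, %) at or below a given log2 fold change (x axis) for stiffness and RGD at each time, for the 59 late transcripts (blue) and all 7876 tested (grey). For stiffness at 48 h and RGD at 12 h the blue curve crosses 50% left of the grey one, with medians of -0.29 and -0.30. For RGD at 12 h it also reaches far to the right, up to 1.68. For stiffness at 12 h both cross 50% near 0.

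RGD at 48 h divided the late transcripts. With RGD 33 of the 59 had a fold change below 0 and 26 above, with a median of -0.13, against 50% below 0 among all tested. By edgeR 0 of the 59 were called, with 0.0508% of all tested called. DESeq2 called 0, giving 36 of the 59 no adjusted p, and limma-voom called 1. An unadjusted p under 0.05 was found for 15 of the 59 (12 lower, 3 higher), 25.4% against 15.1% of all tested. For 6 of the 59 the 4 libraries with RGD lay below all 4 without, and for 0 they lay above. That is 10.2% of the late transcripts, against 6.12% of all tested (3.45% lower, 2.67% higher). The median was not stable: it was 0.0030 without soft/RGD 2, 5e-04 without stiff/RGD 2, and -0.0093 without stiff/no-RGD 2. Leaving out soft/no-RGD 2 gave 5 calls among the 59 by edgeR, with 107 among the 8258 transcripts tested in that fit, and leaving out soft/RGD 1 gave 3, with 120 among 8256. There were 2 calls, with 20 over all tested, without either stiff/no-RGD library of 12 h. There were also 2 without stiff/no-RGD 2 or stiff/RGD 1 of 48 h, with 62 and 74 over all tested. With all libraries, 4 were called over all tested.

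ENSRNOT00000077479.1 came nearest to a call for RGD at 48 h. Without RGD it stood at 26.1 and 9.04 CPM in soft and 14.5 and 18.1 CPM in stiff gels. With RGD it stood at 7.69 and 3.82 CPM in soft and 4.89 and 4.29 CPM in stiff gels. The libraries with RGD thus lay below all those without, by a narrow margin in soft gels. Its log2 fold change was -1.70 ± 0.35 (SE, edgeR adjusted p = 0.0619). Left-out libraries moved the adjusted p from 0.0065 to 0.456, the highest without soft/RGD 2. At 12 h it was between 0 and 2.57 CPM in every library, which is few counts.

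At 12 h, before the rise, stiffness split the 59 about evenly. In stiff gels 30 of the 59 were below 0, and the median was -0.034. The filter over all 16 libraries could be passed through the 48 h libraries alone. In a fit of the 12 h libraries only, 39 of the 59 passed, and 24 of these were below 0, with a median of -0.12. At 1 to under 5 CPM at 12 h, 7 of 24 were below 0. Over all 16 libraries, edgeR called 1 of the 59, with 0.749% of all tested called (0.609% higher, 0.14% lower). An unadjusted p under 0.05 was reached by 11 of the 59, 18.6% against 13% of all tested. In the fit of the 12 h libraries 12 of the 39 reached it, and the share over all tested was not computed there. The shares out of 59 include transcripts that did not pass the filter in the 12 h libraries alone. The 4 stiff libraries lay above the 4 soft ones for 3 and below them for 2, 8.47% of the late transcripts against 11% of all tested (5.78% higher, 5.24% lower). The called transcript, ENSRNOT00000026654.6, was higher in stiff gels. It stood at 15.8, 8.71, 15.2 and 8.42 CPM in the 4 soft libraries and at 20.5, 29.9, 21.8 and 19.9 CPM in the 4 stiff ones, which do not overlap. The log2 fold change was 0.93 ± 0.22 (SE, edgeR adjusted p = 0.0437).

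The fold change kept its direction whichever library was left out, at 0.74 to 1.18, but the call of ENSRNOT00000026654.6 did not hold in every such fit. It was lost when any 1 of 9 libraries was left out: at 12 h soft/no-RGD 1 or 2, soft/RGD 1 or 2, stiff/RGD 1 or 2 or stiff/no-RGD 2, and at 48 h stiff/no-RGD 1 or 2, with edgeR adjusted p up to 0.301. Without either of those 48 h libraries the log2 fold change was 0.92, with edgeR adjusted p of 0.051 and 0.0529. At 48 h ENSRNOT00000026654.6 had reached 81.5 to 112 CPM in soft and 67.4 to 99.1 CPM in stiff gels, and these overlapped. Library totals moved with stiffness at 12 h, at 1829779 to 2157015 counts in soft and 2294844 to 3420786 in stiff gels, and their part in this result was not tested.

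RGD at 12 h went with lower levels of most late transcripts, without a call for any of them. With RGD 49 of the 59 were below 0, with a median of -0.30, against 51.5% below 0 and a median of -0.0073 among all tested. In a fit of the 12 h libraries only, 39 of the 59 passed the filter, and 35 of these were below 0, with a median of -0.28. Nor are these independent observations, since they share the same 8 libraries. The median Pearson correlation over these libraries was 0.14 between pairs of late transcripts and -0.001 between pairs of all tested. By edgeR, DESeq2 and limma-voom 0 of the 59 were called, and 0% of all tested by edgeR. An unadjusted p under 0.05 was found for 11, all lower with RGD, which is 18.6% against 3.16% of all tested. In the fit of the 12 h libraries it was found for 8 of the 39, and the share over all tested was not computed there. The shares out of 59, here and below, include transcripts that did not pass the filter in the 12 h libraries alone. In 6 the 4 libraries with RGD lay below the 4 without and in 0 above, 10.2% against 2.09% of all tested (1.08% lower, 1.02% higher). All 16 transcripts with 20 CPM or more at 12 h were below 0, from -0.72 to -0.11. So were 12 of 16 at 5 to under 20 CPM and 21 of 24 at 1 to under 5 CPM. The 3 under 1 CPM were all above 0, from 1.18 to 1.68, on few counts. Without stiff/no-RGD 2, the library with the highest summed level at 12 h, 39 of the 59 were below 0, with a median of -0.26.

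ENSRNOT00000023594.5, the second most abundant at 48 h, had the smallest p for RGD at 12 h. It stood at 195 and 187 CPM in soft and 103 and 153 CPM in stiff gels without RGD, and at 140 and 119 CPM in soft and 54.6 and 111 CPM in stiff gels with RGD. Within each stiffness, RGD went with the lower mean, but the ranges over both overlapped. The log2 fold change was -0.59 ± 0.18 (SE, edgeR adjusted p = 0.9998). It was -0.385 without stiff/RGD 1 and -0.896 without stiff/RGD 2.

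The interactions with time compare the rise between conditions. The choice of these transcripts used the values behind that rise, so they are given as a description and nothing is read from their calls. By edgeR 0 of the 59 were called for either interaction, with 0% of all tested called for stiffness by time and 0.0127% for RGD by time. For stiffness by time, where a negative value is a smaller rise in stiff gels, 42 of the 59 were below 0 and the median was -0.19. Without stiff/no-RGD 2 at 12 h, the median was -0.080 and 34 were below 0. It was -0.12 without stiff/RGD 2 at 12 h or at 48 h, -0.33 without stiff/no-RGD 2 at 48 h and -0.32 without soft/RGD 2 at 12 h. Leaving out stiff/RGD 1 at 48 h gave -0.30.

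For RGD by time, 36 of the 59 were above 0 with a median of 0.12, where a positive value is a larger rise with RGD. The median over left-out libraries ran from 0.0086, without soft/RGD 1 at 48 h, to 0.29, without stiff/RGD 2 at 12 h. ENSRNOT00000086902.1, named for the smallest p in this contrast, is given by its levels. At 12 h it stood at 9.48 and 9.73 CPM in soft and 6.42 and 5.30 CPM in stiff gels without RGD, and at 2.25 and 3.68 CPM in soft and 4.36 and 5.85 CPM in stiff gels with RGD. At 48 h it held 24.9 and 29.6 CPM in soft and 18.5 and 28.1 CPM in stiff gels if RGD was absent, and 30.8, 33.1, 31.8 and 23.6 CPM, in the same order, if it was present. RGD went with a lower mean at 12 h and a higher one at 48 h in both gels. In stiff gels, however, the libraries with and without RGD overlapped at both times. A pick by the smallest p in this contrast favours such a pattern, so nothing is read from it.

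For stiffness by RGD at 48 h, 40 of the 59 were below 0 with a median of -0.26. By edgeR, DESeq2 and limma-voom 0 of the 59 were called, with 0% of all tested called by edgeR, and 1 of the 59 had an unadjusted p under 0.05, 1.69% against 1.96% of all tested. Without soft/RGD 1 the median was 0.033 and 27 were below 0. ENSRNOT00000003686.7, the one with an unadjusted p under 0.05, stood at 17.4 and 14.6 CPM in soft gels lacking RGD and at 35.5 and 37.8 CPM in those that had it. Stiff gels held 15.4 and 23.6 CPM if RGD was absent and 22.0 and 21.1 CPM if it was present. The level with RGD was thus separate from that without in soft gels but not in stiff gels, and the difference of -1.07 ± 0.42 on the log2 scale did not pass (SE, edgeR adjusted p = 0.9999). Without stiff/no-RGD 2 the difference was -0.699, and without stiff/no-RGD 1 it was -1.35.

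**Figure D5:**
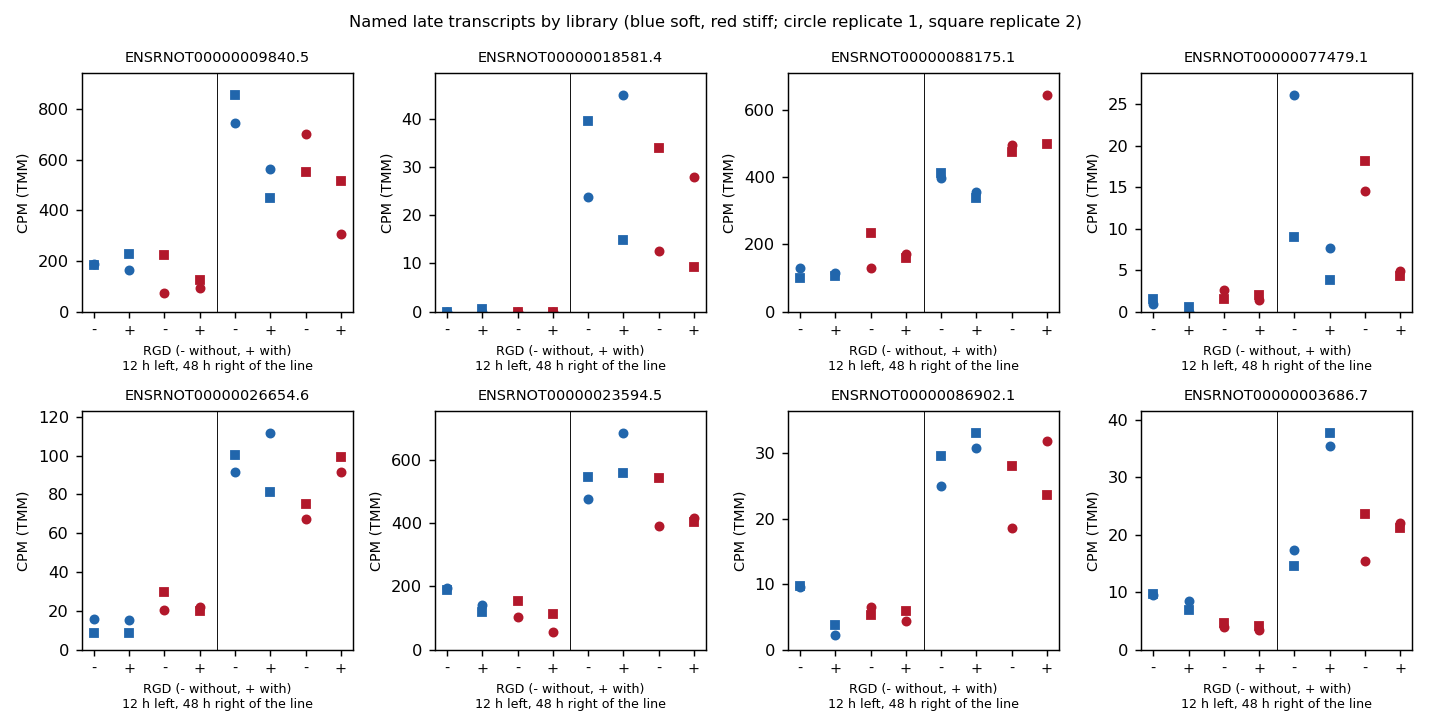
Level of the 8 named late transcripts in each library, in TMM-scaled CPM, with 12 h left and 48 h right of the line and RGD absent (-) or present (+); blue is soft, red stiff, circles replicate 1 and squares replicate 2. At 48 h ENSRNOT00000088175.1 is higher in all stiff libraries, at 474 to 646 against 339 to 414 CPM, and ENSRNOT00000077479.1 is lower in all libraries with RGD.

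Other transcripts that changed with time are given beside these as values, without a test. Of the 200 transcripts that also rose to 5 CPM or more with separate ranges but by less than the fold threshold, 71.0% were lower in stiff gels at 48 h, with a median of -0.11, and 77.5% were lower with RGD at 12 h, with a median of -0.12. Of the 123 found with the times exchanged, 32.5% were lower in stiff gels at 48 h, with a median of 0.20, and 31.7% were lower with RGD at 12 h, with a median of 0.13. All these sets come from the same 16 libraries as the late transcripts. Between replicates of a group at 48 h, the absolute difference of log2 CPM, averaged over the 4 groups, had a median of 0.41 for the late transcripts and 0.39 for all tested. At 12 h it was 0.48 and 0.32.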

How the data were processed

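Total RNA of cell pellets was made into 3′ tag libraries, 16 in all, per the labels' protocols. The authors deposited raw counts, whole numbers for each transcript. FastQC, HISAT2 2.1.0 and HTSeq with the rat build rn6 were used, per the submitters' processing notes (annotation, strand setting, molecular tags: not given in the sources used here). Groups were read from the sample labels.

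The late transcripts were found from CPM by column total. Tests used edgeR 4.0.16 in R 4.3.3 (quasi-likelihood, robust, TMM factors, edgeR's filter on expression by group), with 1 mean per group and a threshold of 0.05 on adjusted p-values. SEs are approximate: the absolute log2 fold change divided by the root of F. DESeq2 1.42.0 and limma-voom 3.58.1 were alternatives. The fit was also run on simulated data that gave all transcripts the same dispersion, and nothing is read from that run. The members and lists were chosen with earlier results of these data known. Named were the transcripts with the highest level and the largest ratio, and per comparison those called or, with none, the one with the smallest p. The 19 gene lists could not be used without gene names. Replicates differed by more than sampling noise in all 8 groups.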

Additional observations from a re-analysis of the deposited data

Results flagged for a closer look

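ENSRNOT00000018581.4 stood at 0.526 CPM in soft/RGD 2 at 12 h and at 0 in the other 7 libraries of that time. The value is a single count, so any library that held it would have been flagged, and nothing is read from the flag. Lone extreme libraries were looked for in 18 sets of 8 libraries (the summed level and 8 named transcripts at each time). Chance flags about 5% of sets of normally distributed values, a rate that does not apply to a single count.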

How the results depend on the processing

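The number of late transcripts was 142 with a log2 threshold of 1 and 21 with a threshold of 2. It was 58 to 70 with single libraries left out. The scaling also moved it. Column totals without the 2 most abundant transcripts gave 63, with 3 of the 59 lost and 7 gained. TMM-scaled totals gave 67, with 0 lost and 8 gained. For stiffness at 12 h the 1 call among the 59 became 2 with DESeq2, 0 with limma-voom or without robust estimation, 6 without a filter on low counts, 4 in a fit of the 12 h libraries alone (39 of the 59 tested), and 0 to 2 with single libraries left out. For RGD at 48 h the 0 calls became 1 with limma-voom, 6 without the filter, and 0 to 5 with single libraries left out. Stiffness by time gave 1 call without the filter. With the replicate number as a block there were 1 call for RGD at 48 h (ENSRNOT00000077479.1, edgeR adjusted p = 0.0445) and 2 for stiffness at 12 h; the labels do not say what the numbers share, and the replicates' differences correlated between groups from -0.22 to 0.19 over 28 pairs of groups, so the numbers were not taken as pairs. The count below 0 for stiffness at 48 h stayed between 41 and 55, and for RGD at 12 h between 39 and 50, with libraries left out. Among all tested transcripts, calls for stiffness at 12 h went from 59 to 204 without the filter, 96 with DESeq2, 95 with the block and 432 with the 12 h libraries alone, and for RGD at 48 h from 4 to 213, 55, 9 and, with the 48 h libraries alone, 1. With single libraries left out, all-tested calls ran from 0 to 105 for stiffness at 12 h, from 1 to 120 for RGD at 48 h and from 0 to 66 for stiffness at 48 h. With limma-voom they were 43 for stiffness at 12 h and 7 for RGD at 48 h. For stiffness at 48 h there were 24 without the filter, for stiffness by time 32 and for RGD by time 7. A fit without the 2 most abundant transcripts was chosen after seeing the data and changed no count of calls among the 59. Depth limits the 27 transcripts under 5 CPM at 12 h most, where a library holds few counts.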
